A study of Homo sapiens with 6 samples.

Results

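The genes described here are 9 components of the tight junction, the 6 claudins CLDN1, CLDN2, CLDN3, CLDN4, CLDN7 and CLDN12, occludin (OCLN), ZO-1 (TJP1) and JAM-A (F11R). They were picked by symbol from the 53826 entries of the deposited tables, and all 9 were among the 13181 analysed entries, those with TPM (the length-corrected share that a gene takes of all transcripts of a library) above 2 in at least 1 library. They had been listed with results of the same comparison known, CLDN3 among them, so their differences between the lines are given as a description and without a test. The study profiled the RNA of 2 lines of A549, an established line from a human lung adenocarcinoma, in 3 libraries each. The control line, A549-GFP, stably overexpressed GFP and the other, A549-TIPARP, stably overexpressed TIPARP, each from the pMXs retroviral vector. TIPARP is a mono-ADP-ribosyltransferase and a known target of the aryl hydrocarbon receptor. The labels name no drug for either line, and whether a line is a pool or a clone is not given in the sources used here. The titles number the libraries as experiments 1 to 3 without saying that they came from separate cultures, so p-values measure only the spread between these samples, which may be technical. Library values are listed in the order of replicates 1, 2 and 3. In bulk RNA, fewer cells that express a gene and less RNA per cell cannot be told apart.

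Tight junctions seal the space between neighbouring epithelial cells near their apical side. Claudins are membrane-spanning proteins that form the strands of the junction, and the mixture of claudins sets which ions pass. CLDN1, CLDN3, CLDN4 and CLDN7 are generally described as sealing claudins, while CLDN2 forms a channel for small cations and water. Occludin and JAM-A are further membrane proteins of the junction, and ZO-1 is the scaffold that ties the strands to actin. In lung, CLDN3, CLDN4 and CLDN18 are typical of alveolar epithelium.

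TIPARP had 6.79, 11.4 and 3.68 TPM in the control line against 131, 90.5 and 123 TPM in the TIPARP line (limma adjusted p = 0.0125). Its adjusted p by limma was 0.0331 to 0.192 when 1 library was left out, and above 0.05 in each of these 6 fits but the one without A549-GFP replicate 2. With a term for the replicate number in the limma model (replicate block) the adjusted p was 0.513, and without the filter on low values it was 0.0965. The 4 epithelial markers EPCAM, KRT8, KRT18 and CDH1 summed to between 8338 and 21239 TPM in the control line and between 16509 and 19944 TPM in the TIPARP line. Nearly all of this sum came from the keratins KRT8 and KRT18. EPCAM had 166 to 221 TPM in the control line and 126 to 167 TPM in the TIPARP line. For CDH1 the ranges were 61.0 to 142 and 66.5 to 114 TPM, with the highest value in A549-GFP replicate 2. Of the 5 alveolar type 2 markers, SFTPA1, SFTPB, SFTPC and NKX2-1 were listed at the floor of 1 TPM, the lowest value of the tables, in all 6 libraries, and NAPSA alone gave 1.03 to 4.43 TPM in the control line and 1.93 to 2.65 TPM in the TIPARP line. All 4 endothelial markers and 4 of the 5 fibroblast markers were also at the floor throughout, and the fifth, COL1A1, had 1.44, the floor and 1.31 TPM in the control line and 1.64 to 2.56 TPM in the TIPARP line, without overlap. Such a separation upward was seen in 5.36% of the analysed genes. COL1A1 passed the filter through A549-TIPARP replicate 3 alone, so it could enter only as a higher gene. PTPRC and CD3E were at the floor in all 6 libraries, and LYZ and CD68 together summed to 31.9 to 74.1 TPM in the control line and 30.7 to 42.9 TPM in the TIPARP line. A549-GFP replicate 2 stood apart, since its log2 values deviated from the mean of its line by 0.62 (root mean square), against 0.19 to 0.40 for the other 5 libraries. Its KRT8 was 3855 TPM, beside 6959 to 9287 TPM in the others. It had the highest value of the 6 libraries for 52.0% of the analysed genes, and for 7 of the 9 genes described here.

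CLDN3 and CLDN4 are neighbours on the long arm of chromosome 7, and their start sites lie 60.7 kb apart. CLDN3 is a gene of 1 exon (hg38, chromosome 7, 73768997 to 73770270, minus strand), and the canonical transcript of CLDN4 also has 1 exon (gene from 73799542 to 73832690, plus strand). Their promoter windows, from 250 bases before to 50 bases after the start site, are shown because these claudins had the highest and the next highest ratio of A549-TIPARP to A549-GFP of the 9 genes. The sequences are those of RefSeq on GRCh38.p14, at chr7:73770221-73770520 on the minus strand for CLDN3 and chr7:73830746-73831045 on the plus strand for CLDN4. Capitals mark matches, on either strand, to the GC box GGGCGG and to the E-box CAGGTG, the form recognised by Snail and ZEB factors.
CLDN3: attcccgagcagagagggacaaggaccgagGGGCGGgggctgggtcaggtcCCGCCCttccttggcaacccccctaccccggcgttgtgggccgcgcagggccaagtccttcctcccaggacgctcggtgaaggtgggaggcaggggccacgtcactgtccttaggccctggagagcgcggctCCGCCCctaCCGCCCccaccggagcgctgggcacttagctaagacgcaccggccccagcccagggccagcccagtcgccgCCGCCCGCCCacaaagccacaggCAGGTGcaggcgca
CLDN4: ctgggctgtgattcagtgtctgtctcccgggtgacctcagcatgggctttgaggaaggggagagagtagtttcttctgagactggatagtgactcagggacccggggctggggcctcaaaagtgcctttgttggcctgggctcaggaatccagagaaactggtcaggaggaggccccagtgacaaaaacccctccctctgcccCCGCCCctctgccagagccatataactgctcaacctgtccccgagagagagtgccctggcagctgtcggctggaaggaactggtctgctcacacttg
The CLDN3 window held 6 GC box matches, of which a pair overlaps, and 1 E-box match, at 72.0% GC. The CLDN4 window held 1 GC box match and no E-box match, at 59.0% GC. The median of all 34943 promoter windows was 58.7% GC. At least 1 match was present in 44.9% of all windows for the GC box and in 20.6% for the E-box. Promoter windows were found for 8 of the 9 genes, 14 windows in all, since several genes have more than 1 start site, and F11R had none in the table. Of the 14 windows, 5 held the E-box and 8 the GC box. The AHR core motif GCGTG was in 7 of the 14 windows and in 36.5% of all windows, in neither the CLDN3 nor the CLDN4 window. The Grainyhead core ACCGGT was in 0 of the 14 windows and in 1.82% of all windows.

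Of the 9 genes, CLDN3 differed most between the lines. The control line gave 2.95, 1.26 and 1.80 TPM of CLDN3, and the TIPARP line gave 6.66, 5.09 and 10.97 TPM. All 3 A549-TIPARP libraries were above all 3 A549-GFP libraries, whose values lay close to the floor of 1 TPM. The mean log2 TPM was 0.92 ± 0.61 (SD, n = 3) in the control line and 2.85 ± 0.56 (SD, n = 3) in the TIPARP line, a difference of 1.93 or 3.81-fold. On log2(TPM + 1), which lowers the differences of scarce transcripts, the difference was 1.49 with a limma standard error of 0.32. Leaving out any 1 library gave differences in mean log2 TPM between 1.63 and 2.25. The fibroblast marker COL1A1 also separated the lines, as 5.36% of the analysed genes did in this direction, but it passed the filter only because it was higher in A549-TIPARP replicate 3. Its part in this result was not tested. CLDN3 was the only one of the 9 genes for which A549-GFP replicate 2 gave the lowest value of the 6 libraries, 0.549 times the geometric mean of the other A549-GFP libraries.

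CLDN4 was also scarce, and its lines overlapped. Its TPM was 1.29, 4.47 and 1.38 in the control line against 3.15, 2.96 and 4.65 in the TIPARP line. A549-GFP replicate 2 reached the range of the A549-TIPARP libraries, while the other A549-GFP libraries were below all of it. The difference in mean log2 TPM was 0.82, from 0.99 ± 1.01 to 1.81 ± 0.35 (SD, n = 3 each), or 1.76-fold. Without A549-GFP replicate 2 it was 1.40, past 2-fold, and with any other library left out it was between 0.50 and 0.94.

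CLDN7, the third scarce claudin, did not share this pattern. Its TPM was 1.66, 5.09 and 1.35 in the control line against 2.38, 1.41 and 1.75 in the TIPARP line. The highest value was that of A549-GFP replicate 2, and the lines overlapped. The difference in mean log2 TPM was -0.32, and 0.27 without A549-GFP replicate 2. CLDN7 (chromosome 17, 7259903 to 7263983, minus strand) overlaps the analysed gene ELP5 on the opposite strand, and the use of strand in the counting is not given in the sources used here.

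**Figure D1:**
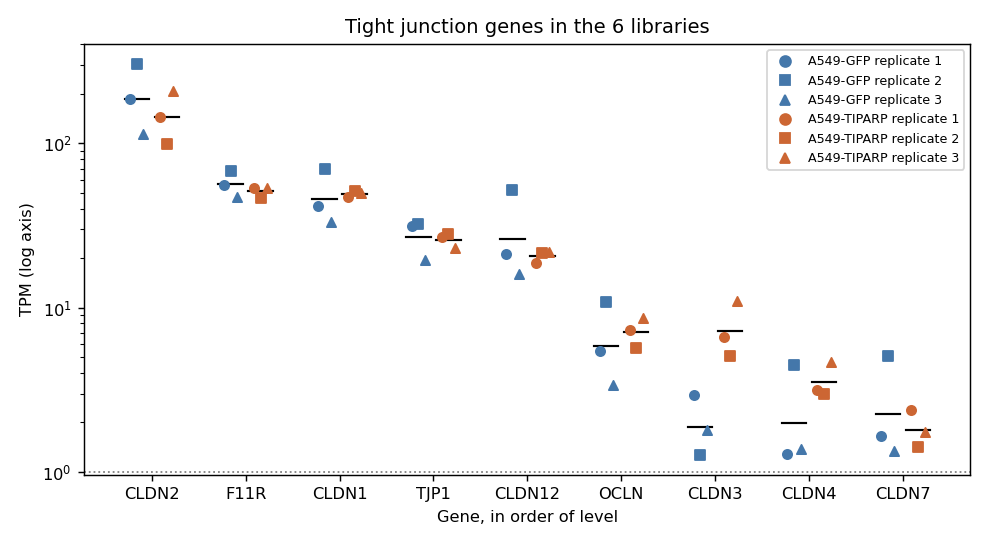
TPM of the 9 tight junction genes in each library, on a log axis, in order of their mean level, with circles, squares and triangles for replicates 1, 2 and 3 and a black bar at the geometric mean of each line. The dotted line is the floor of 1 TPM. Only for CLDN3 do the A549-TIPARP points (5.09 to 10.97 TPM) all lie above the A549-GFP points (1.26 to 2.95 TPM).

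CLDN2, the cation channel claudin, was the most abundant of the 9 genes. Its TPM was 186, 305 and 113 in the control line against 144, 99.0 and 206 in the TIPARP line. The lines overlapped widely, and the difference in mean log2 TPM was -0.38, or -0.02 without A549-GFP replicate 2. Its level exceeded that of 93.9% of the analysed genes. CLDN2 (chromosome X, 106900164 to 106930861, plus strand) lies within MORC4, a gene on the opposite strand that was also among the analysed entries.

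CLDN1, a sealing claudin needed for the skin barrier, overlapped fully between the lines. Its TPM was 41.4, 69.4 and 33.3 in the control line against 46.8, 51.4 and 49.8 in the TIPARP line. The A549-TIPARP values fell within the A549-GFP range, and the difference in mean log2 TPM was 0.11, with a change of sign to -0.12 without A549-GFP replicate 3. The highest and lowest library of a line differed 2.08-fold in the control line and 1.10-fold in the TIPARP line. CLDN1 lies on chromosome 3 from 190305707 to 190322446 on the minus strand, with 4 exons in its canonical transcript.

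CLDN12, an unusual claudin that lacks the PDZ-binding tail of the others, was set apart in 1 library. Its TPM was 21.2, 51.6 and 16.0 in the control line against 18.7, 21.4 and 21.8 in the TIPARP line. Apart from A549-GFP replicate 2 the 5 libraries lay between 16.0 and 21.8 TPM. The difference in mean log2 TPM was -0.33 and became 0.16 without that library. CLDN12 lies on chromosome 7 from 90383721 to 90513402 on the plus strand, and GTPBP10, an analysed gene, overlaps it on the same strand.

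Of occludin and JAM-A, only occludin had a higher mean in the TIPARP line. OCLN (chromosome 5, 69492292 to 69558104, plus strand) had 5.41, 10.8 and 3.37 TPM in the control line against 7.34, 5.65 and 8.58 TPM in the TIPARP line. The A549-TIPARP values lay within the A549-GFP range, and the difference in mean log2 TPM of 0.29 ran from -0.11 to 0.73 with each library left out. A pseudogene of it, OCLNP1, lies on the same chromosome, and how reads that match both were counted is not given in the sources used here.

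F11R and TJP1 varied least among the control libraries. F11R, which encodes the adhesion molecule JAM-A, had 55.2, 68.1 and 47.0 TPM in the control line against 53.5, 46.6 and 53.0 TPM in the TIPARP line. TJP1, the gene of the ZO-1 scaffold, had 31.3, 32.2 and 19.4 TPM in the control line and 26.9, 28.1 and 22.9 TPM in the TIPARP line. For both genes the lines overlapped, with differences in mean log2 TPM of -0.14 for F11R and -0.06 for TJP1, the latter turning to 0.01 when each library was rescaled by its median ratio. F11R lies on chromosome 1 from 160995211 to 161021343 and TJP1 on chromosome 15 from 29699367 to 29968915, both on the minus strand.

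Counted over the 9 genes, 1 was more than 2-fold higher in the TIPARP line, beside 1.53% of the analysed genes, and 0 were more than 2-fold lower, beside 0.432%. The lines did not overlap for 1 of the 9, beside 8.91%. A higher mean in the TIPARP line was found for 4 of the 9 (CLDN1, CLDN3, CLDN4 and OCLN), beside 40.1%, and for 5 of the 9 after median-ratio rescaling, which added TJP1. Since the genes had been listed with this comparison known, nothing is read from these counts. The median difference of the 9 genes was -0.06 and that of all analysed genes -0.07 in mean log2 TPM. Both medians moved with A549-GFP replicate 2, to 0.27 and 0.05 without it, and 7 of the 9 genes then had a higher mean in the TIPARP line. They moved the other way when replicate 3 of the control line was left out, to -0.27 and -0.17, with 2 of the 9 genes higher. Over all analysed genes, 2 had a limma adjusted p-value under 0.05, 0.0152% of them, and these were TIPARP and RBM14-RBM4.

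**Figure D2:**
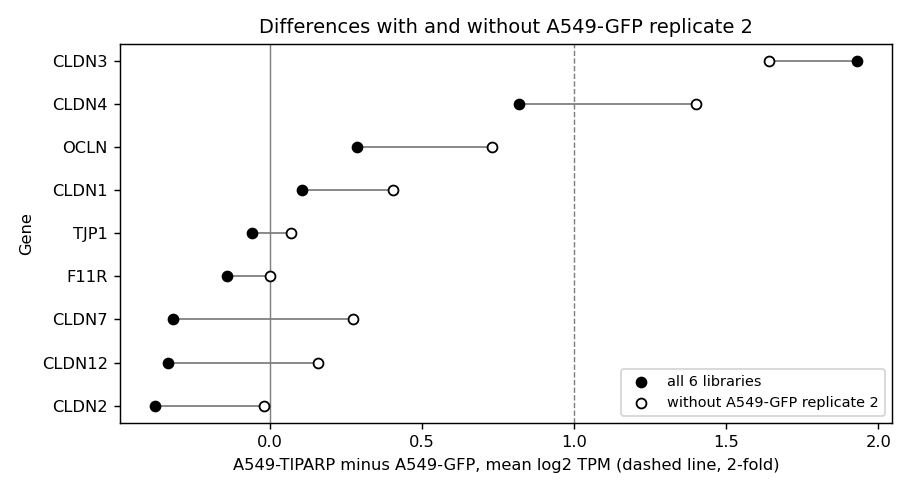
Difference in mean log2 TPM (A549-TIPARP minus A549-GFP) of each gene, with all 6 libraries (filled) and without A549-GFP replicate 2 (open). CLDN3 moves from 1.93 to 1.64, CLDN4 moves from 0.82 to 1.40 across the dashed 2-fold line, and the other 7 genes move to the right, CLDN7 from -0.32 to 0.27.

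Ordered by their geometric mean over the 6 libraries, the genes ran from CLDN2 at 163 TPM through F11R at 53.5, CLDN1 at 47.5, TJP1 at 26.4, CLDN12 at 23.1, OCLN at 6.42, CLDN3 at 3.68 and CLDN4 at 2.65 to CLDN7 at 2.01 TPM. This order pools the lines, and it differed between them at its lower end. By geometric mean CLDN7 (2.25 TPM), CLDN4 (1.99 TPM) and CLDN3 (1.89 TPM) came last in the control line, and CLDN3 (7.19 TPM), OCLN (7.09 TPM), CLDN4 (3.51 TPM) and CLDN7 (1.80 TPM) in the TIPARP line. TPM is corrected for transcript length, so these levels can be compared between genes. CLDN2 was above F11R in 6 of 6 libraries, by 3.05-fold on average, and CLDN12 was above OCLN in 6 of 6, by 3.60-fold. CLDN1 was above TJP1 in 6 of 6 libraries, by 1.80-fold. The other neighbours in the order changed places in at least 1 library. F11R and CLDN1 differed by 0.17 ± 0.25 (SD, n = 6) and TJP1 and CLDN12 by 0.19 ± 0.46 on the log2 scale, less than their spread. The scarce claudins also differed by less than their spread, CLDN3 from CLDN4 by 0.48 ± 1.17 and CLDN4 from CLDN7 by 0.39 ± 0.71. OCLN and CLDN3 differed by 0.80 ± 1.22, and CLDN3 was above OCLN in 1 of the 6 libraries, A549-TIPARP replicate 3.

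The makeup of the claudin transcripts gives a view that a common scaling of a library cannot change. Of the 24 claudin entries in the tables, 15 were at the floor in all 6 libraries, CLDN5 of endothelium and CLDN18 of alveolar epithelium among them. The 9 others summed to between 187 and 474 TPM per library. CLDN2 took 67.8%, 64.2% and 60.5% of that sum in the control line against 59.1%, 49.0% and 65.4% in the TIPARP line. CLDN1, CLDN2 and CLDN12 together took 85.1% to 90.7% in every library. These 3 claudins made up most of the claudin transcripts of both lines.

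CLDN3 took 1.07%, 0.267% and 0.962% of the claudin sum in the control line against 2.73%, 2.52% and 3.48% in the TIPARP line. CLDN4 took 0.470%, 0.942% and 0.734% in the control line and 1.29%, 1.47% and 1.48% in the TIPARP line. On this scale all A549-TIPARP libraries were above the A549-GFP libraries for both genes, as they were for 6.43% of all analysed genes when set against the same sum. The sum was 474 TPM in A549-GFP replicate 2 and 187 to 315 TPM in the other libraries, and the TPM of CLDN4 itself overlapped. Their joint share was 1.48% ± 0.25 (SD, n = 3) in the control line and 4.32% ± 0.55 (SD, n = 3) in the TIPARP line. The share of CLDN7 overlapped, at 0.799% ± 0.245 and 0.744% ± 0.215 (SD, n = 3 each). The ratio of CLDN3 to CLDN4 overlapped, ranging from 0.283 to 2.29 in the control line and from 1.72 to 2.36 in the TIPARP line. Shares of a sum are bound to each other, and these come from the same values that listed CLDN3, so no test is given.

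**Figure D3:**
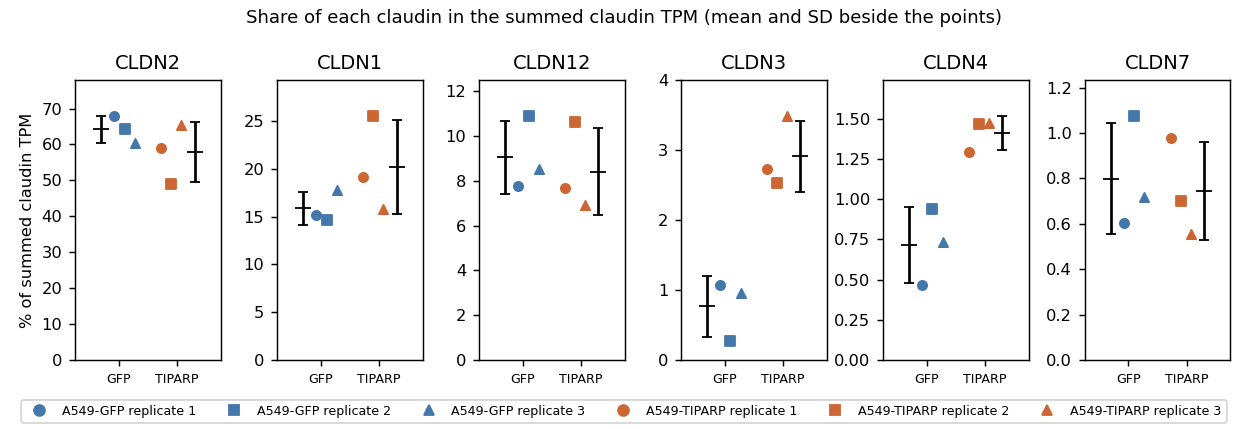
Share of 6 claudins in the summed claudin TPM of each library (percent, axes starting at 0 and scaled per gene), with the mean and SD (n = 3) of each line beside the points. The A549-TIPARP points lie above the A549-GFP points for CLDN3 (2.52% to 3.48% against 0.267% to 1.07%) and CLDN4 (1.29% to 1.48% against 0.470% to 0.942%), and overlap for the other 4.

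The other genes of the tight junction were taken from a list of 56 entries, 18 further claudins, 11 membrane proteins and 27 proteins of the cytoplasmic plaque and of cell polarity. Of these 34 were analysed and 20 were at the floor in all 6 libraries. By limma 0 of the 34 had an adjusted p-value under 0.05. At an unadjusted p-value under 0.05, 3 genes had a higher mean and 0 a lower one, beside 2.97% and 0.880% of the analysed genes (3.85% in either direction). None of the 34 passed 2-fold in either direction, and their median difference in mean log2 TPM was -0.09. Leaving out A549-GFP replicate 2 moved it to 0.11, and leaving out replicate 3 of that line moved it to -0.30.

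The 3 higher genes were JAM3, CGNL1 and RAB13. JAM3, a relative of JAM-A found on endothelium and other cells, had 1.24, the floor and 1.27 TPM in the control line and 1.73, 2.94 and 2.14 TPM in the TIPARP line (limma adjusted p = 0.994). CGNL1 encodes paracingulin, a plaque protein. It stood at the floor throughout the control line and at 2.06, 2.03 and 1.62 TPM in the TIPARP line (limma adjusted p = 0.994). RAB13, a small GTPase of junction assembly and one of the most abundant genes of the list, had 110, 95.5 and 125 TPM in the control line and 140, 147 and 144 TPM in the TIPARP line. Its difference on log2(TPM + 1) was 0.39 with a standard error of 0.16 (limma adjusted p = 0.994). In each of these genes all A549-TIPARP libraries were above all A549-GFP libraries, which held for 5.36% of the analysed genes. In 1 gene of the list, AMOTL1, all A549-TIPARP libraries were below, with a difference in mean log2 TPM of -0.35, which held for 3.54%. JAM3 and CGNL1 exceeded 2 TPM in A549-TIPARP libraries alone, so the filter let them in only because they were higher there. With TPM above 2 required in at least 3 libraries, 1 gene of the list was higher at an unadjusted p-value under 0.05. The count of 3 also became 0 without A549-TIPARP replicate 2, 1 without A549-GFP replicate 1 or A549-TIPARP replicate 1, and 6 without A549-GFP replicate 2.

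The remaining claudins above the filter were CLDN15, with 11.7 to 25.8 TPM in the control line and 11.8 to 13.5 TPM in the TIPARP line, and CLDN23, with 7.22 to 10.5 and 6.48 to 8.87 TPM. The lipolysis-stimulated receptor LSR, which marks corners where 3 cells meet, was the most abundant of the other membrane proteins at 66.8 to 118 TPM in the control line and 71.1 to 89.2 TPM in the TIPARP line. Tricellulin (MARVELD2) and the polarity protein CRB3 had the lowest ratios of that group, with differences in mean log2 TPM of -0.39 each, and both had their highest value in A549-GFP replicate 2. In the plaque group the lowest differences were those of MAGI2 at -0.40, which was above the floor only in A549-GFP replicate 2, and ARHGEF2 at -0.37, while YBX3 was the most abundant gene at 212 to 243 TPM.

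In the adjoining junctions of the same cells, 0 of 15 analysed adherens junction and desmosome genes had an adjusted p-value under 0.05 by limma, 0 had an unadjusted one, beside 0.0152% and 3.85% of all analysed genes, and their median difference in mean log2 TPM was 0.01. The most abundant were plakoglobin (JUP), at 229 to 283 TPM in the control line and 235 to 330 TPM in the TIPARP line, and EPCAM, at 166 to 221 and 126 to 167 TPM. The desmosome plaque gene DSP was lower in every A549-TIPARP library, at 41.7 to 53.2 TPM against 56.4 to 69.2 TPM (limma adjusted p = 0.994), a separation seen in 3.54% of the analysed genes. EPCAM, which binds CLDN7 and CLDN1 at the cell surface, had a difference in mean log2 TPM of -0.30. At an unadjusted p-value 1 of these genes was higher without A549-GFP replicate 2. The largest differences upward were 0.37 for DSC2 and 0.33 for NECTIN2, with overlapping lines in both.

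Of 20 regulators of epithelial junction genes 13 were analysed, and 0 had an adjusted p-value under 0.05 by limma, with 1 higher and 0 lower at an unadjusted one, beside 2.97% and 0.880% of all analysed genes. The higher gene was TWIST1, a factor known from mesenchymal cells, at the floor throughout the control line and at 1.64, 2.06 and 1.80 TPM in the TIPARP line (limma adjusted p = 0.994). It passed the filter through A549-TIPARP replicate 2 alone, so it could enter only as a higher gene. The count of 1 became 0 with TPM above 2 required in at least 3 libraries, and also without A549-GFP replicate 1, A549-TIPARP replicate 1 or A549-TIPARP replicate 2, and 3 without A549-GFP replicate 2. Of lower genes there was 1 without A549-GFP replicate 2, and there were 2 when replicate 3 of that line was left out. ELF3, an epithelial ETS factor, was the most abundant at 114 to 247 TPM in the control line and 171 to 184 TPM in the TIPARP line, followed by KLF5 at 52.5 to 84.8 and 46.4 to 59.3 TPM. KLF4 had 11.03, 23.3 and 6.48 TPM in the control line against 5.89, 5.75 and 6.75 TPM in the TIPARP line, a difference in mean log2 TPM of -0.95 with overlapping lines (limma adjusted p = 0.994). ESRP1 differed by -0.54 and FOXA1 by 0.21, also with overlap. AMOTL1, GRHL2, SNAI2, ZEB2 and OVOL1 are named here with their values already known, and the last 4 were at the floor in all 6 libraries.

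**Figure D4:**
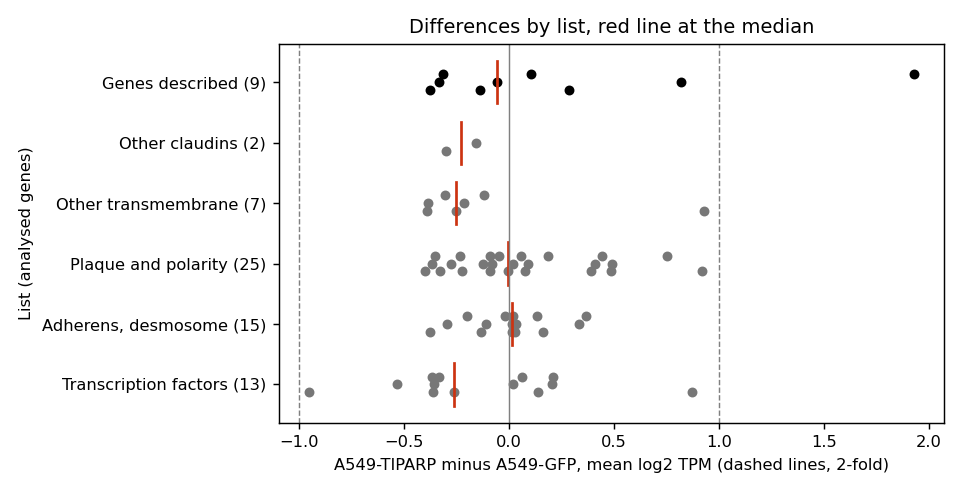
Difference in mean log2 TPM (A549-TIPARP minus A549-GFP) of each analysed gene, by list, with a red line at the median of the list and dashed lines at 2-fold. The 9 genes described have a median of -0.06, with CLDN3 at 1.93, the one point past 2-fold in any of the lists.

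Since CLDN3 and CLDN4 lie near each other, the genes whose start sites lie within 500 kb of that of CLDN3 were also taken. There were 19 analysed genes besides CLDN3, of which 12 had a higher mean in the TIPARP line, beside 40.1% of all analysed genes. CLDN4, which had been listed with this comparison known, is among the 12. The median difference of the 19 genes in mean log2 TPM was 0.03. It was 0.24 without A549-GFP replicate 2 and -0.03 without A549-TIPARP replicate 2. Distances are signed along the chromosome. Of the 19 only ABHD11-AS1, at -34.9 kb and named BICDL3P in GENCODE, was past 2-fold, by a narrow margin, beside 1.53% of all analysed genes higher and 0.432% lower, with a difference of 0.76 and a standard error of 0.25 on log2(TPM + 1) (limma adjusted p = 0.966). All its A549-TIPARP libraries were above its A549-GFP libraries, as in 5.36% of the analysed genes. Of ABHD11, which overlaps it on the opposite strand, the difference was -0.12. METTL27, at 72.2 kb, had a difference of 0.51 without overlap (limma adjusted p = 0.994). Without CLDN4, 0 of the other 18 genes had an adjusted p-value under 0.05 by limma and 2 had an unadjusted one, ABHD11-AS1 and METTL27, beside 3.85% of all analysed genes. TBL2 had all its A549-TIPARP libraries below its A549-GFP libraries, as in 3.54% of the analysed genes, with a difference of -0.15. The lowest differences were -0.31 for NSUN5 and -0.25 for BAZ1B, with overlapping lines.

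**Figure D5:**
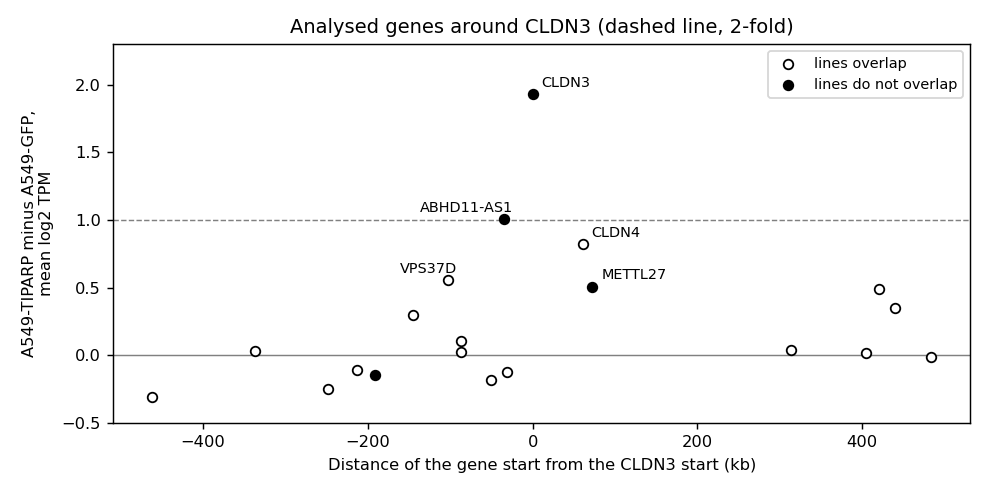
Difference in mean log2 TPM (A549-TIPARP minus A549-GFP) of the analysed genes against the distance of their start site from that of CLDN3 in kb, filled where the libraries of the lines do not overlap. CLDN3 (1.93), ABHD11-AS1, CLDN4 (0.82), VPS37D (0.56) and METTL27 (0.51) are the 5 highest points, between -102 kb and 72.2 kb. MIR590, at 421 kb, is nearly level with METTL27 (0.49). Within the same span STX1A (-0.18) and ABHD11 (-0.12) lie below 0.

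Across all analysed genes, the 5 whose centred log2(TPM + 1) values over the 6 libraries were closest to those of CLDN3 were NDRG4, B4GALNT4, QPRT, REEP2 and OLFML2A. Their root mean square difference from CLDN3 was 0.16, 0.18, 0.22, 0.22 and 0.26 on the log2 scale. NDRG4 had 6.65, 3.43 and 4.35 TPM in the control line against 14.4, 14.3 and 20.3 TPM in the TIPARP line, so that A549-GFP replicate 2 was lowest and A549-TIPARP replicate 3 highest, as for CLDN3. NDRG4, B4GALNT4 and QPRT were between 2.97-fold and 3.48-fold higher in the TIPARP line. REEP2 and OLFML2A were at the floor in A549-GFP replicate 2 and above 2 TPM in A549-TIPARP libraries alone, so no fold is given for them. Genes were chosen for this likeness over 6 libraries of 2 lines, and no test is attached to it.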

How the data were processed

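mRNA libraries were made with a stranded kit per the labels. The authors quantified reads as TPM in Strand NGS on hg38, and the deposited files, 1 for each library, give log2 values by gene. The software version and annotation release are not given in the sources used here. The lowest log2 value is 0, or 1 TPM, which was read as a floor. There are no counts, so the depth and the counting error are unknown.

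The differences are those of the mean deposited log2 TPM. limma 3.58.1 in R 4.3.3 (variance trend, Benjamini-Hochberg adjustment over the 13181 genes that passed the filter of 2 TPM in 1 library or more) was run on log2(TPM + 1), as the values are not counts, and was tested on simulated data. Listed TPM at the floor entered as 1. Without the filter, entries at the floor in all 6 libraries could not be fitted. The genes and lists were chosen with earlier results of these data known. Named from each list are genes past a threshold, the 2 most abundant and the 2 largest differences in each direction. Others are said to have been singled out, and 1 gene that the rule names is not reported here. Alternatives were other pseudocounts (1 and 0.1), arithmetic means, other filters, median-ratio rescaling, no trend, a replicate block and each library left out. Positions are those of GENCODE 44 and start sites those of its canonical transcripts.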

Additional observations from a re-analysis of the deposited data

How the results depend on the processing

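CLDN3 remained more than 2-fold higher under all 10 alternatives run on it, with differences from 1.49 upward to 2.25, and was the 1 gene of the 9 past 2-fold, except without A549-GFP replicate 2, when CLDN4 made it 2 (range 1 to 2 with each library left out). CLDN4 had a higher mean and CLDN2 a lower one under all 10. F11R was lower in the others but -0.00014 without A549-GFP replicate 2, no difference, while CLDN1, CLDN7, CLDN12 and OCLN changed sign in 1 setting each and TJP1 in 4. Of the 9 genes, 2 to 7 had a higher mean with each library left out, the fewest without A549-GFP replicate 3. In the tight junction list 0 genes passed 2-fold, and 0 to 1 with a library left out, among them PARD6A without A549-GFP replicate 2 (1.32), JAM3 without A549-TIPARP replicate 1 (1.11) and CGNL1 without A549-TIPARP replicate 3 (1.03). PARD6A was singled out after its values were seen. Genes of that list higher at an unadjusted p-value numbered 3, but 0 with the replicate block, 1 with TPM above 2 in at least 3 libraries and 2 without a trend. They numbered 4 with median-ratio rescaling and 0 to 6 with a library left out, the most without A549-GFP replicate 2. Of the regulators of junction genes, 1 was higher and 0 lower at an unadjusted p-value, against 0 higher with the replicate block or the filter on 3 libraries, 2 higher with no filter, 1 lower after median-ratio rescaling, and 0 to 3 higher and 0 to 2 lower with a library left out. Same-numbered libraries had deviations correlated at -0.49 to 0.41. With 3 libraries per line these correlations cannot tell whether the replicate numbers pair the libraries. Of the adherens junction and desmosome genes 0 passed, against 1 lower with no filter and 1 higher without A549-GFP replicate 2. No list had a limma adjusted p-value under 0.05 in any alternative. Over all analysed genes, 202 were past 2-fold higher and 57 lower, against 78 and 20 with a pseudocount of 1, 182 and 143 with arithmetic means, and 228 to 383 higher and 39 to 200 lower with a library left out. The TIPARP call was lost with the replicate block (adjusted p = 0.513) and without a filter (adjusted p = 0.0965), settings that cannot move its log2 difference of 3.90 here, which was 3.54 to 4.24 with each library left out, with adjusted p from 0.0331 to 0.192. The cause was not tested. TPM keeps no depth, so how far the scarce CLDN3, CLDN4 and CLDN7 values are limited by counting is unknown.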
